A study of Mus musculus with 6 samples.

Results

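The genes described here are 10 members of the Hippo pathway, measured in mouse hearts with and without extra copies of a microRNA cluster. They are the core kinases Stk4, Lats1 and Lats2, the adaptors Sav1, Mob1a and Mob1b, the upstream scaffolds Nf2, Wwc1 and Frmd6, and the kinase Map4k4. They were chosen by name as kinases, adaptors and scaffolds of the pathway, and all 10 were found among 22180 genes with a probe of their own. Each member had exactly 1 probe on the array, and no probe was shared between a member and another gene.

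RNA of whole hearts was hybridised to 6 Affymetrix arrays, 3 for each genotype, all on a mixed C57BL/6 x 129S6 background. Control hearts carried Nkx2.5-Cre alone, and transgenic hearts carried Nkx2.5-Cre together with R26R-miR302-367, a copy of the miR-302 and miR-367 cluster at the Rosa26 locus that Cre switches on. Nkx2.5-Cre acts in cardiac progenitors and their descendants, so whole-heart RNA also holds RNA of cells outside that lineage. The labels give the age once as day 14 after birth and once as E14, and they do not say whether the samples of a group came from separate animals, so the p-values rest on array-to-array spread that can be technical in origin.

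The Hippo pathway is a chain of kinases that restrains organ growth. STK4, known as MST1, works with the scaffold SAV1 and phosphorylates LATS1 and LATS2 and their activating partners MOB1A and MOB1B. The LATS kinases then phosphorylate the coactivators YAP and TAZ, which keeps them out of the nucleus and away from the TEAD transcription factors. In the mouse heart, loss of Sav1 or of the LATS kinases is known to prolong proliferation of heart muscle cells. Stk4, Lats2 and Mob1b have been reported as targets of the miR-302 and miR-367 cluster, and the comparison asks how the transcripts of the kinase module differ between hearts with and without it.

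Of the microRNAs whose overexpression defines the transgenic group, 4 mature 3p forms are shown with their seed, bases 2 to 8 from the 5′ end, in capitals, as RefSeq gives them on GRCm38.p6. All lie on the plus strand of chromosome 3, at chr3:127545275-127545297 for miR-302b-3p, chr3:127545665-127545687 for miR-302d-3p, chr3:127545406-127545427 for miR-302c-3p and chr3:127545779-127545800 for miR-367-3p.
mmu-miR-302b-3p: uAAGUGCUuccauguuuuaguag
mmu-miR-302d-3p: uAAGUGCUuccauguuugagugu
mmu-miR-302c-3p: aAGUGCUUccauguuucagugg
mmu-miR-367-3p: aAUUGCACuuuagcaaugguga
The miR-302b and miR-302d sequences share 1 seed, which 3 other mature mouse microRNAs in the RefSeq table also carry. The miR-302c-3p entry begins 1 base further in, so its bases 2 to 8 are shifted by 1 base along the same run of letters. The miR-367 seed differs and is carried by 6 other entries of the table. The cluster also encodes miR-302a-3p and the 5p arms, which are not printed.

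The cluster separated the genotypes on every array. Mir302c had log2 values of 3.60, 3.53 and 2.98 in controls and of 9.999, 9.97 and 9.97 in transgenic hearts (limma adjusted p = 1.6742e-07). Mir367 went from 2.81 ± 0.13 to 7.32 ± 0.078 (SD, n = 3 each). All 5 genes of the cluster rose, by 2.99 to 6.61 on the log2 scale. Their control means of 2.52 to 3.76 lay below the array medians of 5.45 to 5.54 and no detection calls were used, so these differences may be understated. Mature microRNAs were not measured.

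No member of the kinase module passed the test. Of the 10 members, 0 had a limma adjusted p under 0.05, while 2465 of all 22180 genes did, a share of 11.1%, with 5.35% higher and 5.76% lower in transgenic hearts. At an unadjusted p under 0.05 the members held 3 genes, all lower in transgenic hearts, or 30% of them, beside 25.4% of all genes in either direction and 13.4% lower. The median log2 fold change, transgenic minus control, was -0.18 over the members and -0.03 over all genes. Of the members, 7 had a negative and 3 a positive value, and 56.7% of all genes had a negative value. Control and transgenic values were fully separate for 2 members, Stk4 and Lats2, both lower in transgenic hearts, and for 30.9% of all genes, with 16.7% lower. The members' share of 20% is thus under the share of all genes with separate groups and near the share separate in that direction.

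**Figure D1:**
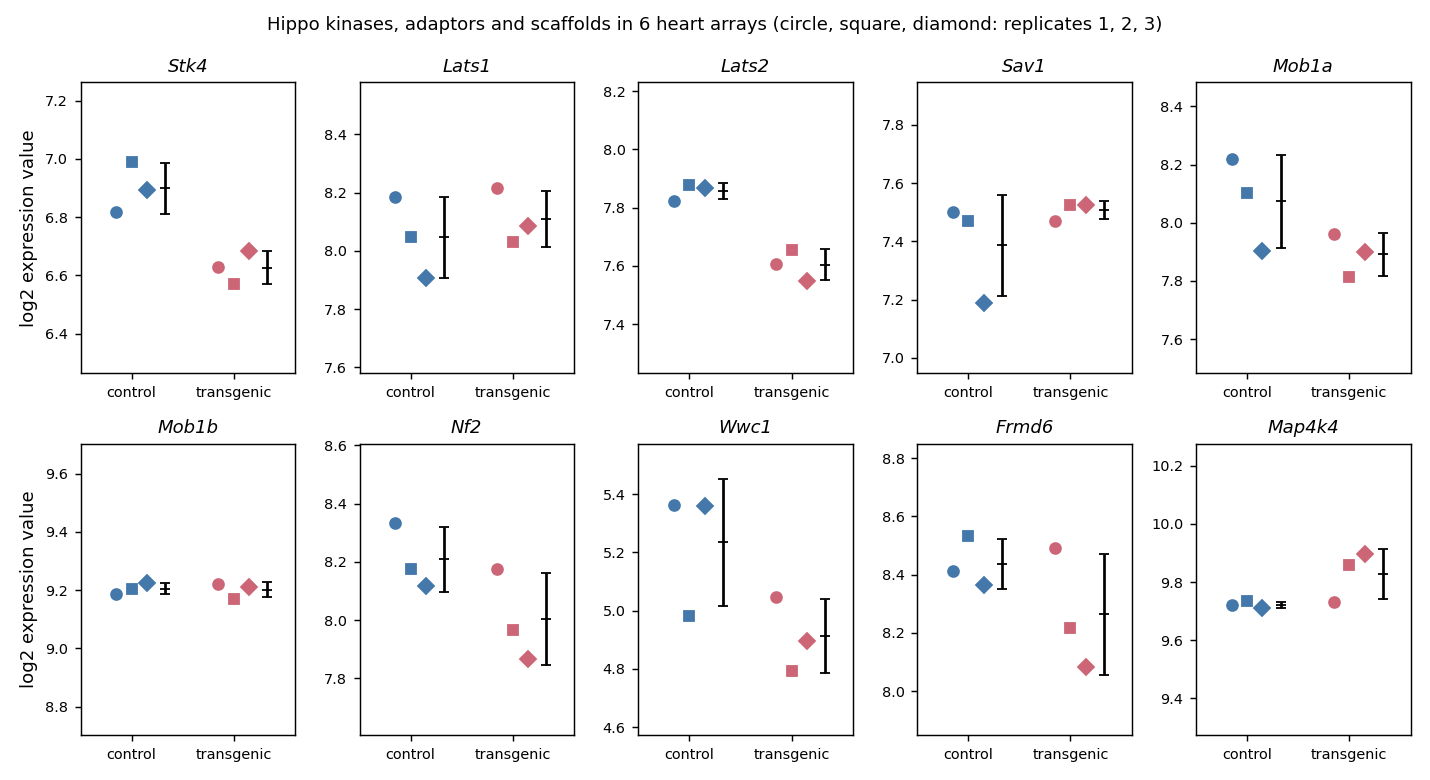
Deposited log2 expression value of each member (vertical axis, each panel spanning 1 log2 unit) on the control and transgenic arrays. Symbols are single arrays and bars are the mean ± SD (n = 3). The groups are separate for Stk4 and Lats2 and overlap for the other members. Transgenic replicate 1 lies within the control range for every member except Stk4, Lats2 and Lats1.

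Among the core kinases, Stk4 and Lats2 had the 2 smallest unadjusted p-values of all members. Stk4, the kinase at the top of the chain, had log2 values of 6.82, 6.99 and 6.89 in controls and of 6.63, 6.57 and 6.68 in transgenic hearts. Every transgenic sample lay below every control sample, with a gap of 0.13 between the nearest arrays. Stk4 differed by -0.27 on the log2 scale, SE 0.088 (95% interval -0.47 to -0.07), a 1.21-fold difference that missed the threshold at a limma adjusted p = 0.083793. Of all genes, 15.1% had a smaller p.

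Lats2, which phosphorylates YAP and is itself known as a gene that YAP and TEAD switch on, had log2 values of 7.82, 7.88 and 7.87 in controls and of 7.61, 7.66 and 7.55 in transgenic hearts. The groups were separate here too, by 0.17, and the spread within each was small (SD 0.029 in controls and 0.054 in transgenic hearts). Lats2 differed by -0.25 on the log2 scale, SE 0.081 (95% interval -0.44 to -0.07), a 1.19-fold difference (limma adjusted p = 0.083779). The calls of both kinases depended on the processing. When the arrays were normalized by quantiles once more, Stk4 had a value of -0.36 (limma adjusted p = 0.03027) and Lats2 of -0.31 (limma adjusted p = 0.04357). The median log2 fold change over all genes was -0.031 before this step and -0.0612 after it. With the dimmest genes left out (a share of 0.333), Lats2 passed at 0.04782 and Stk4 did not, at 0.05004.

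Lats1, the paralog of Lats2, had log2 values of 8.19, 8.05 and 7.91 in controls and of 8.22, 8.03 and 8.08 in transgenic hearts. The ranges overlapped, with control replicate 3 below all transgenic arrays. Its log2 fold change of 0.06 (95% interval -0.17 to 0.29) had a limma adjusted p = 0.762 and was -0.0068 without control replicate 3.

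The LATS paralogs were also set against each other within each array, where only the change of the difference between groups has a meaning. The Lats2 value minus the Lats1 value was -0.36, -0.17 and -0.04 in controls and -0.61, -0.37 and -0.54 in transgenic hearts. Every transgenic array lay below every control array, the nearest pair being -0.36 and -0.37. The mean went from -0.19 ± 0.16 to -0.51 ± 0.12 (SD, n = 3 each), a difference of -0.32. An exact two-sided permutation test gave p = 0.1, the smallest p that 3 against 3 arrays can give, and 0.2 after adjustment over the 2 paralog pairs compared.

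**Figure D2:**
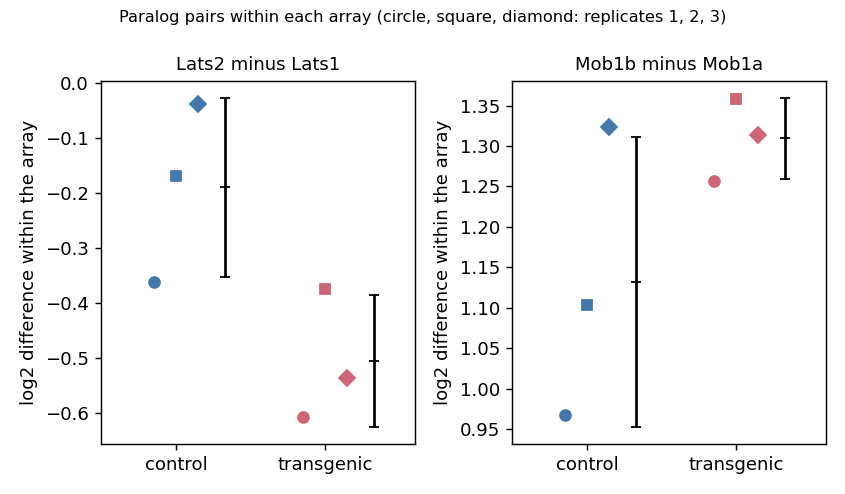
Log2 value of one paralog minus that of the other within each array (vertical axis, a separate scale in each panel), for the LATS and the MOB1 pair. Symbols are arrays and bars the mean ± SD (n = 3). The Lats2 minus Lats1 difference was -0.19 in controls and -0.51 in transgenic hearts, and the Mob1b minus Mob1a difference was 1.13 and 1.31. The groups are separate for the LATS pair and overlap for the MOB1 pair.

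Of the adaptors, none differed beyond the spread between arrays. Mob1b, a coactivator of the LATS kinases, had the narrowest range of any member over the 6 arrays, with 9.19, 9.21 and 9.23 in controls and 9.22, 9.17 and 9.21 in transgenic hearts. The SD was 0.02 in controls and 0.026 in transgenic hearts, and the group means differed by less than that. The log2 fold change was -0.0047, and its 95% interval of -0.18 to 0.17 leaves room for levels between 0.881 and 1.13 times the control level (limma adjusted p = 0.98077). Mob1b thus had a value near 0 while Stk4 and Lats2, the other reported targets, had values of -0.27 and -0.25.

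Mob1a, which encodes the near-identical paralog of MOB1B, had log2 values of 8.22, 8.10 and 7.90 in controls and of 7.96, 7.81 and 7.90 in transgenic hearts. Control replicate 3 lay inside the transgenic range, and the other controls lay above it. The log2 fold change was -0.18 (95% interval -0.42 to 0.05, limma adjusted p = 0.32155), and it was -0.11 without control replicate 1 and -0.27 without control replicate 3. The Mob1b value minus the Mob1a value was 1.13 ± 0.18 in controls and 1.31 ± 0.051 in transgenic hearts (SD, n = 3 each), a difference of 0.18 (exact two-sided permutation p = 0.3, and 0.3 when adjusted over both pairs). The groups overlapped.

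Sav1, the scaffold that joins STK4 to LATS, had log2 values of 7.502, 7.47 and 7.19 in controls and of 7.47, 7.52 and 7.52 in transgenic hearts. The control replicate 3 value was the lowest of the 6, and the others lay close together. The log2 fold change was 0.12 (95% interval -0.11 to 0.35, limma adjusted p = 0.53116), and it dropped to 0.02 without control replicate 3.

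The upstream scaffolds all had negative values. Wwc1, which encodes KIBRA, a scaffold that brings LATS kinases to NF2, had log2 values of 5.36, 4.98 and 5.36 in controls and of 5.05, 4.79 and 4.90 in transgenic hearts. Control replicate 2 lay within the transgenic range and the other controls above it. Wwc1 had the lowest control mean of the members, 5.23, below the array medians of 5.45 to 5.54, and no detection calls were used. Its log2 fold change of -0.32 (SE 0.13) was the most negative of the members (95% interval -0.61 to -0.04, limma adjusted p = 0.14363). Without control replicate 2 the value was -0.45 and passed the test (limma adjusted p = 0.04362). Without control replicate 1 it was -0.26 (limma adjusted p = 0.3292).

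Nf2, which encodes the membrane scaffold merlin, had log2 values of 8.33, 8.17 and 8.12 in controls and of 8.18, 7.96 and 7.87 in transgenic hearts. Transgenic replicate 1 lay among the controls, while the other transgenic samples lay below them all. Nf2 differed by -0.21 on the log2 scale (95% interval -0.45 to 0.04, limma adjusted p = 0.28289). Frmd6, a FERM-domain protein named Willin, had log2 values of 8.41, 8.53 and 8.37 in controls and of 8.49, 8.22 and 8.08 in transgenic hearts. The same transgenic array stood within the control range here, and the log2 fold change was -0.17 (95% interval -0.44 to 0.09, limma adjusted p = 0.41225). Without transgenic replicate 1 the value was -0.29 for Nf2 (limma adjusted p = 0.1828) and -0.29 for Frmd6 (limma adjusted p = 0.1782), and without transgenic replicate 3 it was -0.14 for Nf2 (limma adjusted p = 0.5656) and -0.08 for Frmd6 (limma adjusted p = 0.7544).

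Map4k4, a kinase that can phosphorylate LATS in parallel to STK4, had log2 values of 9.72, 9.73 and 9.71 in controls and of 9.73, 9.86 and 9.89 in transgenic hearts. The controls lay close together (SD 0.011), transgenic replicate 1 lay with them, and the other transgenic samples lay above. Map4k4 differed by 0.11 on the log2 scale (95% interval -0.09 to 0.30, limma adjusted p = 0.49458).

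Across the 10 members, the median deviation from the control mean was -0.01 on transgenic replicate 1, -0.21 on replicate 2 and -0.20 on replicate 3. On the control arrays it was 0.06, 0.02 and -0.04. The transgenic arrays held 5, 8 and 6 members below their control means, and the control arrays held 5, 3 and 7. Without transgenic replicate 1 the median log2 fold change of the members was -0.24, and without transgenic replicate 3 it was -0.11.

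**Figure D3:**
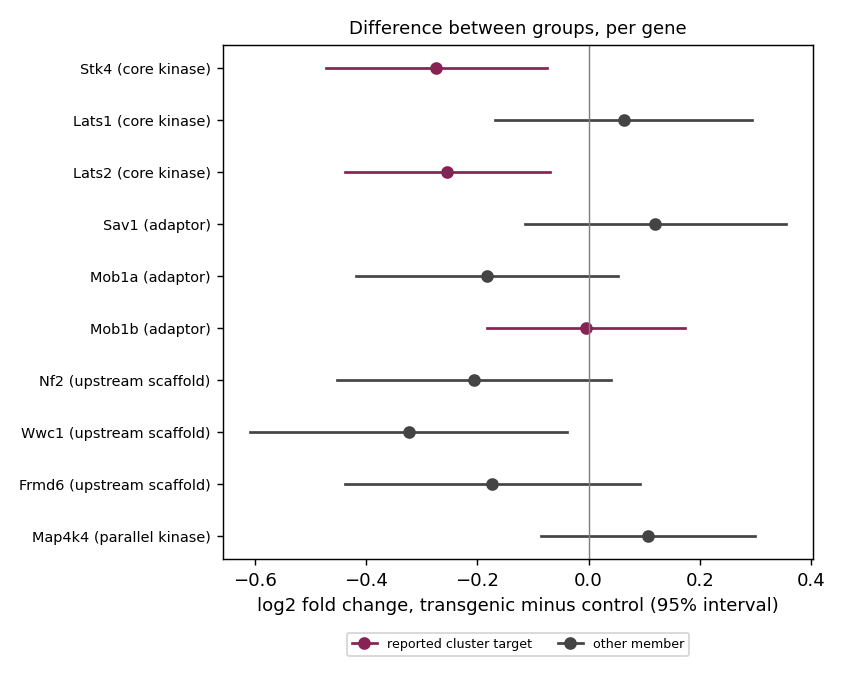
Log2 fold change of each member, transgenic minus control (horizontal axis), with its 95% interval from limma. The intervals of Stk4, Lats2 and Wwc1 lie below 0 without adjustment for the number of genes tested, those of the other members include 0, and among the reported cluster targets Mob1b has a value of -0.0047.

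The 3 reported targets and the remaining members were compared by their values alone. The reported targets had log2 fold changes of -0.27, -0.25 and -0.0047. The other 7 members ranged from -0.32 to 0.12, with a median of -0.17. The 2 ranges overlap, and Wwc1, which is not among the reported targets, had the most negative value and the lowest control mean.

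The promoters of Stk4 and Lats2 are shown because these are the members whose groups were separate, and because Lats2 is a known TEAD-responsive gene. They run from 250 bases before to 50 after the annotated start, from RefSeq on GRCm38.p6, with any match to GGAATG, the core of the TEAD motif, on either strand in capitals. The Lats2 window shown, 1 of 2 annotated starts, lies at chr14:57746074-57746373 on the minus strand and the Stk4 window at chr2:164073888-164074187 on the plus strand.
Lats2: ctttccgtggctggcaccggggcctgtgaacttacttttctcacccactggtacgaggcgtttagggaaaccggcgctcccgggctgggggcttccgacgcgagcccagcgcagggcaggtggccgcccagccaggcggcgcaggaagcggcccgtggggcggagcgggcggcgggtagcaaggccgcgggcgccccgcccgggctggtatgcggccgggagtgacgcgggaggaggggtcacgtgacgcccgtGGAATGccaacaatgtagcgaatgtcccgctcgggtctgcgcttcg
Stk4: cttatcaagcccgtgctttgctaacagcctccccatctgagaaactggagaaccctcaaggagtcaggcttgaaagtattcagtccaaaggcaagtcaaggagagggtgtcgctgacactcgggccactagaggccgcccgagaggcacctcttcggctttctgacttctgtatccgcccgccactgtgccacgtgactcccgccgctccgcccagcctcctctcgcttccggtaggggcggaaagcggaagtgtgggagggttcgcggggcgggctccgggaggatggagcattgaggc
The Lats2 window shown holds 1 match, while the second Lats2 window, at chr14:57734369-57734668, and the Stk4 window hold none. Promoter windows were found for 9 members, of which 3 held the motif in at least 1 window, Lats2, Mob1a and Sav1. Of all 32851 promoter windows of this length, 14.7% hold it, and of the 11 member windows 27.3% do. The 3 members with a match had log2 fold changes of -0.25, -0.18 and 0.12, so they did not share a direction. A match is only a run of letters and was not tested for binding.

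Beyond the members, 64 of 71 listed genes of the pathway were measured, of which 5 rose and 1 fell, or 9.38% beside 11.1% of all genes. Their median log2 fold change was 0.02. Among 11 paralogs and relatives of the members, 0 passed the test, and 2 had an unadjusted p under 0.05. These were Stk26 with -0.40 (limma adjusted p = 0.10643), or -0.23 without control replicate 2, and Mob4 with 0.25 (limma adjusted p = 0.17081). The Stk26 control mean of 5.24 lay below the array medians of 5.45 to 5.54.

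Among 9 upstream kinases 1 fell and 0 rose. Stk11, which encodes LKB1, the activator of AMPK and of the MARK kinases, had log2 values of 7.87, 8.14 and 7.89 in controls and of 7.42, 7.12 and 7.32 in transgenic hearts. The groups were separate, with a log2 fold change of -0.68, SE 0.11 (limma adjusted p = 0.0066348), and the call held under all 15 alternatives.

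Of 18 junction and polarity genes, 2 rose and 0 fell. Prkci, the atypical protein kinase C of the Par complex, rose by 0.60 on the log2 scale (limma adjusted p = 0.0050627), also under all 15 alternatives. Patj, a scaffold of the Crumbs complex, rose by 0.46 (limma adjusted p = 0.020976), but missed the threshold without control replicate 1, control replicate 2, transgenic replicate 2 or transgenic replicate 3, at an adjusted p of up to 0.08861.

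Of 17 listed regulators of the kinases, plotted as inhibitors although not all restrain them, 1 rose and 0 fell. It was Nedd4, a ubiquitin ligase, with a rise of 0.33 (limma adjusted p = 0.033849). Nedd4 missed the threshold without control replicate 1, control replicate 2 or any transgenic array, with renewed quantile normalization, with centred arrays and with the replicate number as a block, at an adjusted p of up to 0.1198.

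Of 9 coactivators and transcription factors at the end of the pathway, 2 rose and 0 fell. Tead2 rose by 0.97 (limma adjusted p = 0.00059949) and Tead3 by 0.56 (limma adjusted p = 0.041976). The Tead3 call was lost without control replicate 1, control replicate 2 or any transgenic array, and with renewed quantile normalization or the block, at an adjusted p of up to 0.1426. The YAP transcript itself, Yap1, had a value of 0.03 (limma adjusted p = 0.89863) and Wwtr1, which encodes TAZ, of -0.08 (limma adjusted p = 0.6379).

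Of 25 reported YAP targets without a main role in mitosis, a list that includes Lats2 and Wwc1, 3 rose and 3 fell, or 24% beside 11.1% of all genes, with a median of -0.18. Without adjustment 12 of them, or 48%, had a p under 0.05, beside 25.4% of all genes. The members Lats2 and Wwc1 are among these 12. Of the 25 genes, 15 had a negative value, beside 56.7% of all genes. Their groups were separate for 9 genes in the lower and 5 in the higher direction, beside 16.7% and 14.2% of all genes. Gadd45b rose by 1.23, Igf1r by 0.83 and Rbms3 by 0.31, while Crim1 fell by 0.41, Arhgef17 fell by 0.36 and Myof fell by 0.32. The calls of Gadd45b and Igf1r held under all 15 alternatives, while those of the other 4 genes were each lost without at least 4 of the single arrays.

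**Figure D4:**
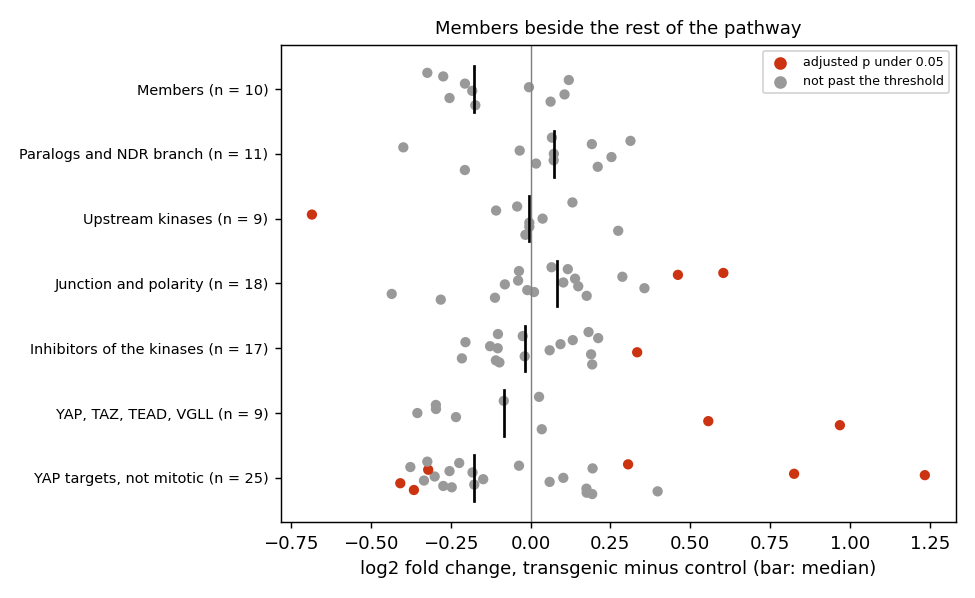
Log2 fold change, transgenic minus control (horizontal axis), of the members and of the other pathway lists. Each point is a gene, red where the limma adjusted p was under 0.05, and the bar is the list's median. No member is red, and the member median of -0.18 lies left of the medians of the upstream kinases, -0.0037, and of the junction genes, 0.08. A low median is not particular to the members. The YAP targets also have a median of -0.18, and the coactivators and transcription factors one of -0.08.

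Markers of several cell types differed between the same hearts. All 12 cardiomyocyte markers were measured, with a lowest control mean of 10.2 on the log2 scale, and 0 of them were called. Endothelial markers fell in 8 of 12 cases with 0 higher, and the log2 of their summed level was 13.13 to 13.21 in controls and 12.72 to 12.84 in transgenic hearts. Macrophage markers fell in 8 of 12 cases with 0 higher, with summed levels of 10.81 to 10.98 and 10.16 to 10.38. Of 8 smooth muscle and pericyte markers 3 fell and 1 rose, of 10 fibroblast markers 1 rose, of 6 measured blood markers 0 were called, and all 5 measured proliferation markers rose. The lowest control mean was 3.79 among the blood markers and 4.79 among the macrophage markers, below the array medians of 5.45 to 5.54. No detection calls were used, so some of these markers may not be detected. In whole-heart RNA, fewer cells of a type and less RNA per cell cannot be told apart. The part of these shifts in the member values was not tested.

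**Figure D5:**
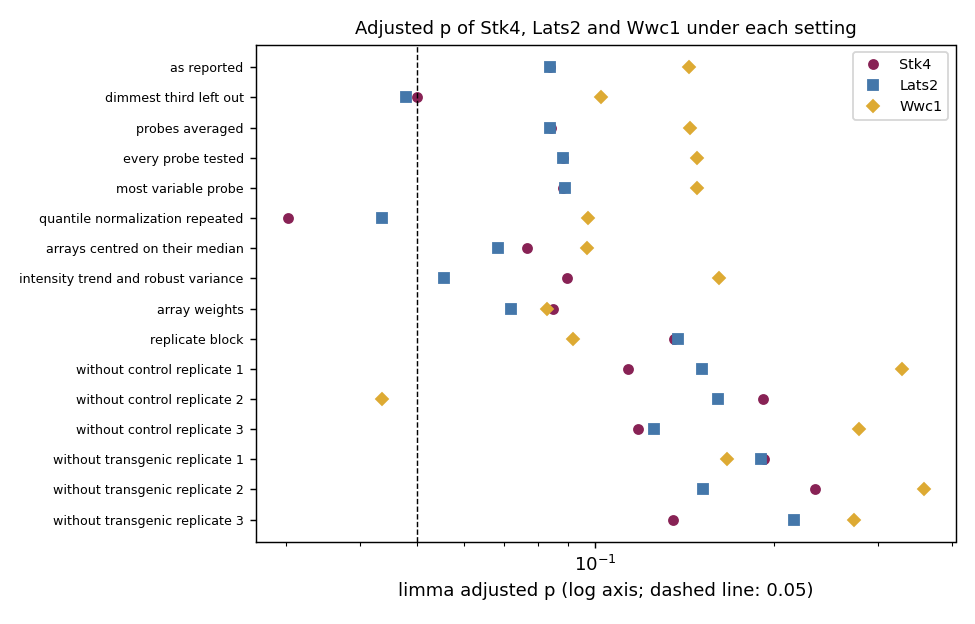
Limma adjusted p (horizontal, log axis) of Stk4, Lats2 and Wwc1 as reported and under 15 alternatives. The dashed line is 0.05, and the points left of it are Stk4 and Lats2 with renewed quantile normalization, Lats2 with the dimmest genes left out, and Wwc1 without control replicate 2.

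The adjusted p-values of Stk4, Lats2 and Wwc1 under every setting show how near the threshold these members lie. Stk4 and Lats2 had negative values under all 15 alternatives, from -0.36 to -0.23 for Stk4 and from -0.31 to -0.23 for Lats2. Wwc1 ranged from -0.45 to -0.26. Stk4 passed under 1 alternative, Lats2 under 2 and Wwc1 under 1. The 95% intervals of Stk4 and Lats2 reach down to 0.721 and 0.738 times the control level.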

How the data were processed

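Total RNA (100 ng per sample, per the labels' protocols) was primed with poly(T), amplified, labelled with biotin and hybridised. The values deposited by the authors are log2 expression levels, a column for each array and a row for each probe. Tools named in the submitters' processing notes are oligo, RMA and limma, with no version. Their settings and the annotation version were not stated there. Of 41345 probes, 23521 had 1 gene symbol in the platform annotation, 1814 several and 16010 none. Per gene the single-symbol probe with the highest mean was kept, giving 22180 genes. Array medians were 5.45 to 5.54, arrays correlated at 0.974 to 0.989, and no 2 held identical values. Only 6 arrays limit the precision. No scan dates or detection calls were used.

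Transgenic and control arrays were fitted in R 4.3.3 using limma 3.58.1 (lmFit, eBayes, no covariates, no filter), adjusting by Benjamini-Hochberg over all genes at 0.05, two-sided. The steps were tested on simulated data, where recovery was required only for shifts far larger than the members' differences. Recovery of smaller shifts is not reported here, so the simulation does not show that differences of the members' size would be called. The members and lists were chosen with earlier results of these data known. Named genes are all members, the cluster, called genes of each pathway list or else its 2 smallest p. Marker lists are given as counts. Stk3 was not analysed here. The replicate numbers were checked for pairing by the correlation of same-numbered deviations from the group means. Alternatives changed the dim-gene filter, the probe choice, the normalization, the variance model, array weights, the block, a minimum fold of 1.5 and single arrays. Promoter and microRNA sequences came from RefSeq on GRCm38.p6. Sequences of 3' UTRs were not used here.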

Additional observations from a re-analysis of the deposited data

How the results depend on the processing

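Beside the 0 members called, 1 was called with the dimmest genes left out (Lats2, -0.25) and 2 with quantile normalization repeated (Stk4, -0.36, and Lats2, -0.31). Leaving out single arrays gave 0 to 1 called members, the 1 being Wwc1 without control replicate 2, where 8.13% of all genes were called. Wwc1 ranged from -0.45 to -0.26 over the fits without single arrays. The filter left 14787 genes in the fit, and the cause of the changes between settings was not tested. The median of the members stayed between -0.24 and -0.11 under all 15 alternatives, within its spread between arrays (SD 0.0859). Over all genes the count of calls was 2465, and it was 1171 to 2249 without single arrays and 90 with a minimum fold of 1.5. The count was larger with quantile normalization repeated (2812), the dimmest genes left out (3019), array weights (3137) and the intensity trend with robust variance (3168). Of the other pathway genes, 6 were called, 10 with array weights and 3 to 7 without single arrays. Signs of Lats1 and Mob1b, which passed no test, turned under 1 and 3 alternatives, and those of the other 8 members under none. The 2 paralog differences kept their sign in all 7 alternatives run for them. Same-numbered samples had correlations of deviations of 0.0163, -0.13 and 0.0138, and 0 of 6 samples correlated best with their own number. No pairing by number was visible, but 6 arrays are too few to exclude a weak one. With the replicate number as a block, 1996 genes, 0 members and 4 other pathway genes were called, and Stk4 and Lats2 had adjusted p-values of 0.1355 and 0.1381.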

Other observations

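Map4k5, a kinase of the same family as Map4k4, was chosen after its values were seen. Its log2 values were 8.95, 8.95 and 8.92 in control and 9.22, 9.19 and 9.24 in transgenic hearts, so the groups were separate. The difference of 0.27 on the log2 scale (SE 0.079) missed the threshold (limma adjusted p = 0.05747). Ccn1 and Ccn2, widely used readouts of YAP activity and also chosen after their values were seen, had log2 fold changes of -0.27 (limma adjusted p = 0.38275) and -0.18 (limma adjusted p = 0.7171), with overlapping groups. Ankrd1 and Amotl2, from the same list of YAP targets, went the other way. Their values were 0.40 (limma adjusted p = 0.19775, groups overlapping) and 0.18 (limma adjusted p = 0.23818, groups separate). The Ccn2 values of the transgenic hearts were 9.01, 9.33 and 8.19, a wider spread than the 9.09, 8.97 and 9.001 of the controls.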
